A study of Mus musculus with 2 samples.

Results

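Pdgfra-positive stromal cells were 84 segmented cells of a female mouse gut section, out of 1256 cells of that imaged region with at least 10 panel counts and 31893 cells in the whole series. Their share of the 1256 cells was 6.69% (5.37 to 8.21). They were selected on their own counts: at least 10 counts over the 140 panel genes, at least 1 count of Pdgfra, at least 3 counts of Fn1, Vim and Pdgfra together, at most 1 count of Des, and at most 2 counts of Aqp8 and Slc26a3 together. The values of these 6 genes chose the cells, so they are given below as a description only. Brackets hold exact 95% intervals, Poisson for levels, binomial for shares and conditional binomial for ratios. They cover counting error only, and counts that clump in cells vary more than they allow.

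Pdgfra encodes the alpha receptor for platelet-derived growth factor, a receptor tyrosine kinase that marks mesenchymal cells in many organs. In the gut wall it marks fibroblasts of the lamina propria and submucosa and, at high level, the telocytes that line the epithelium. Such cells build extracellular matrix and supply the epithelium with Wnt and BMP signals. Fn1 encodes fibronectin, a matrix glycoprotein, and Vim encodes vimentin, the intermediate filament protein of mesenchymal cells. Des encodes desmin, the intermediate filament protein of muscle. Aqp8, a water channel, and Slc26a3, a chloride exchanger, are used by absorptive epithelium.

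The study imaged duodenum and colon of 1 male and 1 female C57Bl6 mouse by MERSCOPE, a platform that counts single transcripts of a chosen gene panel in tissue sections. Both animals were untreated as far as the labels say, and their age is given as 6 to 10 weeks in one place and 6 weeks in another. Tissue was fixed in 4% paraformaldehyde and cut at 10 µm. Each animal gave 2 regions, and the labels leave unsaid which of them is duodenum and which is colon. Every comparison below is within region 1 of the female, with 1 animal on each side, so none carries a test. Cells of 1 section are not replicates of a condition.

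Pdgfra-positive stromal cells by this rule were found in female region 1 alone, and the other 3 regions were too shallow to say that they lacked such cells. Cells with enough counts numbered 55 and 4 in male regions 0 and 1 and 77 in female region 0, and none of them met the rule. With a count of 0 taken to allow 3 cells, the shares could be up to 5.45%, 75% and 3.90%. Pdgfra itself gave 17, 12 and 5 counts there, against 9, 2 and 33 for the highest of the 40 blank barcodes, which match no gene. Per 10000 panel counts that was 55.8 (32.5 to 89.3), 206 (107 to 360) and 11.7 (3.79 to 27.2), beside 147 (136 to 158) in female region 1. The male regions therefore held Pdgfra transcripts above their blanks, and female region 0 did not. Fn1 had only 5, 10 and 23 counts in the same regions and Vim 2, 0 and 6. No cell identifier occurred in more than 1 region.

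Most Pdgfra transcripts of female region 1 lay outside the 84 cells. Of 675 Pdgfra counts in 533 cells, 58.5% were in 344 cells with fewer than 10 panel counts, and 23.7%, or 160 counts, were in the members. The other 105 deep Pdgfra-positive cells failed the rule: 37 only through a stromal sum under 3, 9 only through Des, 5 only through Aqp8 and Slc26a3, and 54 through more than 1 limit. Pdgfra was also detected in 53 of 531 cells rich in Aqp8 and Slc26a3 (at least 3 counts of the pair and a stromal sum of at most 2), a share of 9.98% (7.57 to 12.9). Absorptive epithelium is not usually counted among the cells that express Pdgfra, and these cells were deeper, with a median of 22 panel counts against 14 in the members. In 43 of the 84 members, Pdgfra also rested on 1 count. Whether transcripts of neighbouring cells were assigned to members was not tested.

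Among the members, 43 cells held 1 Pdgfra count, 24 held 2 and 17 held 3 or more, up to 7. Fn1 had 278 counts in 80 of 84 cells and a mean of 3.31 ± 2.18 (SD over 84 cells). Vim was sparser, with 71 counts in 38 cells and 10 of them in 1 cell. Fn1 and Vim occurred together in 37 cells, Fn1 without Vim in 43, Vim without Fn1 in 1 and neither in 3.

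**Figure D1:**
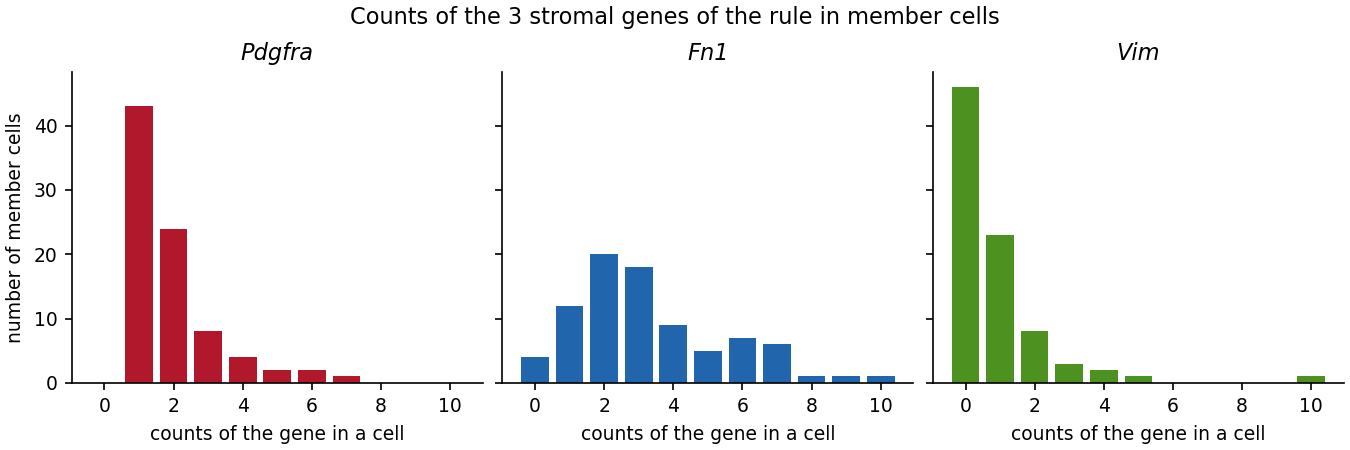
Number of member cells (vertical axis) with each count of Pdgfra, Fn1 and Vim (horizontal axis), over the 84 Pdgfra-positive stromal cells. Pdgfra stands at 1 in 43 cells, Fn1 spreads from 0 to 10, and Vim is at 0 in 46 cells.

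The limits on panel total, stromal sum and Des cut through continuous ranges of counts. With a panel total of 10 there were 10 members, and 17 further cells met every other limit with a total of 9. A stromal sum of 3 was held by 12 members and a sum of 2 by 12 cells just outside, and each of these 2 sets of cells held 10 Ezr counts. Des stood at 1 in 5 members and at 2 in 2 excluded cells. Aqp8 and Slc26a3 summed to 2 in 6 members, and no cell that met the other limits had a sum of 3. Members had 10 to 36 panel counts each, 1293 in all, of which 747 fell on the 134 genes outside the rule. Of those genes 49 lay above the highest blank of these cells (3 counts) and 40 had no count, which allows up to 40.2 per 10000 when a count of 0 is taken to allow 3 counts. Levels of genes outside the rule are given from here on per 10000 counts of those 134 genes. They are not compared between genes, because the sources used here do not give the number of probes per gene.

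The label could be checked only in part. Of 9 fibroblast markers considered, the panel carried Pdgfra alone, and it carried none of those for pericytes, endothelium, immune cells, mesothelium, trophocytes or interstitial cells of Cajal. Matrix genes that the rule did not use gave the most direct check. Col12a1, Col18a1 and Lama2, which encode a fibril-associated collagen, a basement membrane collagen and a laminin chain, summed to 602 (439 to 806) in the members against 37.1 (25.5 to 52.1) in the Aqp8- and Slc26a3-rich cells. The same sum was 204 (125 to 315) in 93 Des-rich cells (at least 3 Des counts and at most 2 of Aqp8 and Slc26a3). At least 1 of these 3 genes was counted in 40.5% of members and 4.90% of Aqp8- and Slc26a3-rich cells. A further set was 157 stromal cells lacking Pdgfra: no Pdgfra count, at least 3 of Fn1 and Vim, and the other limits unchanged. Their sum of the matrix genes was 525 (407 to 665), and its interval overlapped that of the members. Lama2 gave only 2 of the 45 counts in members. Col8a1, a collagen gene left out of the sum, had 1 count in members, 6 in stromal cells lacking Pdgfra and 3 in Des-rich cells. That was too few to compare. Sox6, a transcription factor found in subepithelial telocytes, had 4 counts in 4 members, too few to place them among telocytes or apart from them.

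Markers of enteric neurons were nearly absent from the members, and those of glia were sparse. The 7 neuronal markers summed to 1 count, and 6 of them (Elavl4, Tubb3, Stmn2, Syt1, Sncg and Chrna3) were at 0. Their summed level was 13.4 (0.339 to 74.6) in members, 337 (232 to 473) in Des-rich cells and 97.2 in all other cells. In stromal cells lacking Pdgfra it was 38.6 (12.5 to 90.0), which overlapped the interval of the members. The 5 glial markers summed to 66.9 (21.7 to 156) in members and 66.0 (54.1 to 79.9) in all other cells, and Gfap and Cdh19 were at 0. Transcripts of epithelium were present. Ezr, which encodes the linker ezrin of the apical brush border, was counted in 25 of 84 members (29.8%), in 5.38% of Des-rich cells and in 88.3% of Aqp8- and Slc26a3-rich cells. Crypt epithelium markers were counted as well: Cftr (a chloride channel gene), Kcnn4 (a potassium channel gene) and Gucy2c (the guanylin receptor gene) summed to 268 (164 to 413) in members. The sum was also 268 in all other cells and 156 (131 to 185) in Aqp8- and Slc26a3-rich cells, and the 3 genes were at 0 in Des-rich cells. It pools genes that differ in direction: against all other cells the ratios ran from 0.539 to 2.05, the highest for Kcnn4. Kcnn4 gave 10 counts in members, Gucy2c 7 and Cftr 3. In stromal cells lacking Pdgfra the sum was 340 (247 to 456), so these counts were not particular to the members. Of its 44 counts, Gucy2c gave 8 and Cftr 2, and the rest were of Kcnn4. In all, 45 of 84 members held a count of Ezr, Shroom3, Aqp8 or Slc26a3. The members are therefore called stromal by the rule, and the counts outside it do not show them free of epithelial transcripts.

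Against the 1172 other cells with at least 10 counts, the members had higher levels of the Piezo channel genes, of 2 collagen genes and of a semaphorin co-receptor gene, and lower levels of Ezr and Shroom3. With at least 20 counts over both sides, 95 genes outside the rule could be compared, and the median ratio was 1.10. At least 2-fold higher were 29 genes (30.5%), and at least 2-fold lower were 23 (24.2%), of which 12 had no count in the members. Of the 29 higher genes, 17 had an interval above 1. Of the 23 lower genes, 5 had an interval below 1, and 7 had only 1 to 3 counts in the members. The other cells include the epithelium, the muscle and the stromal cells without Pdgfra, so a ratio depends on their mixture.

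Both Piezo channels were higher in the members than in the other cells. Piezo2, a cation channel opened by membrane stretch and known as a sensor of touch and gut motility, had 17 counts in 12 of 84 members and 54 counts in 47 of 1172 other cells. Its level was 228 (133 to 364) against 33.6, a ratio of 6.77 (3.68 to 11.9). This was the largest ratio among the genes whose interval excluded 1. Among cells with 5 to 9 panel counts, chosen after seeing the data, Piezo2 had 1 count in 48 Pdgfra-positive cells and a ratio of 0.978 (0.0243 to 5.70), so the higher level was not seen there. Piezo1, the related channel of many non-neuronal cells, had 11 counts in 10 members, a level of 147 (73.5 to 263) and a ratio of 4.01 (1.90 to 7.70). Only 1 member held both. Thinned to 10 counts per cell, Piezo2 was expected in 9.99% of members, 4.32% of stromal cells lacking Pdgfra and 1.70% of Aqp8- and Slc26a3-rich cells, beside 14.3%, 5.10% and 4.14% unthinned.

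Matrix and surface genes followed the same direction. Col12a1 had 31 counts in 24 members and 133 counts in 104 other cells, a ratio of 5.01 (3.27 to 7.45). Col18a1, the source of the fragment endostatin, had 12 counts in 12 members and a ratio of 4.69 (2.29 to 8.86). Matn2, which encodes the matrix adaptor matrilin-2, had 7 counts and a ratio of 4.07 (1.53 to 9.24). Cav1, the scaffold protein of caveolae, had 9 counts and a ratio of 4.84 (2.06 to 10.1). No member held more than 3 counts of any of these 4 genes. Both matrix genes of the list that could be compared, Col12a1 and Col18a1, were past 2-fold.

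Nrp2, a co-receptor for class 3 semaphorins and vascular endothelial growth factors, had 21 counts in 17 members and a ratio of 4.47 (2.65 to 7.20). Of the 10 axon guidance genes on the panel, 7 could be compared, with a median ratio of 1.79 beside 1.10 over all 95 genes. Nrp2 was the only one of the 7 past 2-fold, and Slit2 and Robo2 had no count in members. Fgfr1, a fibroblast growth factor receptor, had 17 counts in 14 members and a ratio of 2.65. Prickle2, a planar cell polarity gene, had 18 counts in 14 members and a ratio of 3.55. The intervals of both ratios lay above 1. Egfr, the other growth factor receptor gene compared, had 1 count in members and a ratio of 0.294. Of the other Wnt and planar cell polarity genes, Ctnnb1 stood at 0.933 and Ror2 at 2.32. The intervals of Egfr, Ctnnb1 and Ror2 spanned 1. Other named genes rested on few counts: Grid1 (a glutamate receptor family gene) on 5, P2rx7 (an ATP-gated channel gene) on 4 and Olfm1 (an olfactomedin gene) on 5, with ratios of 5.66, 5.06 and 3.71.

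Among the named genes at lower level, Ezr and Shroom3 belong to the apical cytoskeleton of epithelium. They were the only 2 past 2-fold lower among the 6 compared genes of epithelial transport and apical cytoskeleton, whose median ratio was 0.970, and Kcnn4 stood at 2.05 (0.954 to 3.92). Ezr had 40 counts in members and 2604 in the other cells, a ratio of 0.330 (0.235 to 0.451). Shroom3, which drives apical constriction, had 28 counts and a ratio of 0.361 (0.239 to 0.523). Prdx6, an antioxidant peroxiredoxin gene, had 15 counts and a ratio of 0.369 (0.206 to 0.612). Clec2h, a C-type lectin gene, and Ppard, a lipid-sensing nuclear receptor gene, had 3 and 4 counts, with ratios of 0.241 (0.0495 to 0.713) and 0.351 (0.0948 to 0.910). Atp10b, a lipid flippase gene, had 11 counts and a ratio of 0.520 (0.258 to 0.939).

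**Figure D2:**
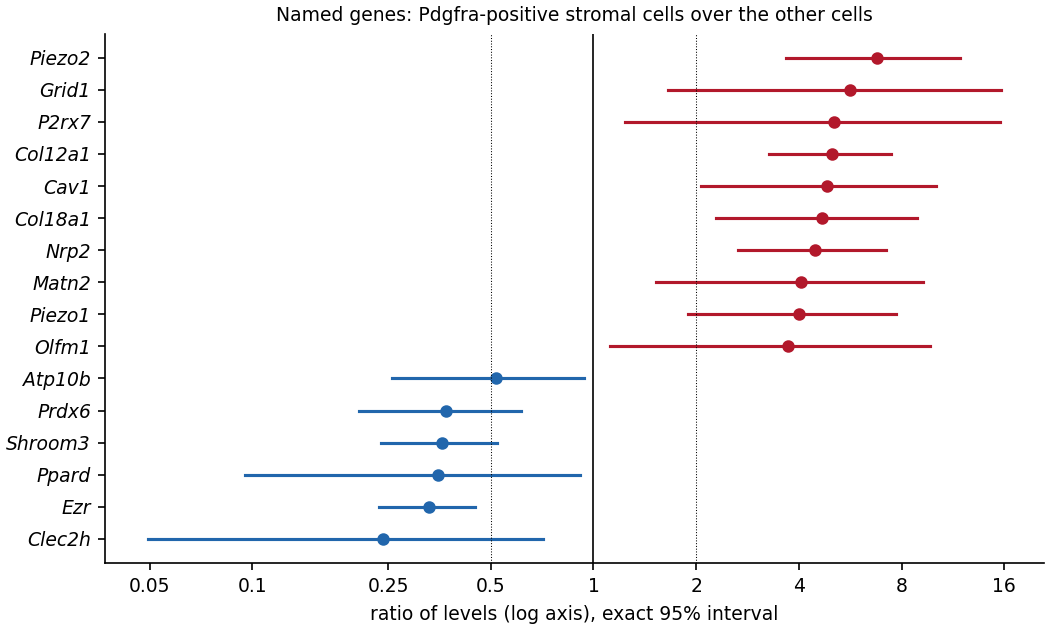
Ratio of each named gene's level in the 84 Pdgfra-positive stromal cells to its level in the 1172 other cells (log axis), with exact 95% intervals. Red marks intervals above 1 and blue those below 1, and dotted lines mark 2-fold. Piezo2 leads at 6.77 and Clec2h is lowest at 0.241.

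This contrast includes the epithelium, since the rule limits Aqp8 and Slc26a3 in members and not in the other cells. When the other cells were held to the same limit, leaving 630, a choice made after seeing the data, 9 genes were at least 2-fold higher in place of 29. Piezo2 kept a ratio of 4.88, and those of Col12a1 and Nrp2 were 2.59 and 2.05. Ezr came to 0.966 (0.679 to 1.34), and Prdx6 turned to 1.39 (0.750 to 2.41). The lower level of Ezr and Prdx6 was thus not seen against cells with as few Aqp8 and Slc26a3 counts.

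The closest set was the 157 stromal cells lacking Pdgfra, which met the same limits with no Pdgfra count and a stromal sum of at least 3. Members made up 34.9% of all 241 stromal cells (28.9 to 41.2). The cells lacking Pdgfra had a median of 13 panel counts, and a Pdgfra count of 0 at this depth does not show that a cell lacked the transcript. The 2 matrix genes that could be compared had ratios of 1.31 and 1.04, and the 3 guidance genes had a median of 0.607. Of 33 genes with at least 20 counts, 4 were at least 2-fold higher in members (12.1%) and 3 at least 2-fold lower (9.09%), and the median ratio was 1.10. Intervals excluded 1 for 6 genes, and with no adjustment for the 33 genes some of these can arise from counting error.

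Ptprk was the best counted of the 4 genes at least 2-fold higher. It encodes a receptor tyrosine phosphatase that acts at cell contacts. It had 34 counts in 22 of 84 members and 25 counts in 24 of 157 cells lacking Pdgfra. The levels were 455 (315 to 636) and 193 (125 to 285), a ratio of 2.36 (1.37 to 4.13). It was also above the Des-rich cells at 153 (85.7 to 252) and the Aqp8- and Slc26a3-rich cells at 72.0 (55.4 to 91.9). Thinned to 10 counts per cell, its expected share of cells was 18.2% in members and 11.3% in cells lacking Pdgfra.

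Piezo2 differed between the stromal sets, while Piezo1 did not beyond its error. Piezo2 had 17 counts in 12 members against 11 counts in 8 cells lacking Pdgfra, a ratio of 2.68 (1.18 to 6.33), and no member held more than 3. Piezo1 had 11 counts against 23, at levels of 147 and 177 (113 to 266). Its interval overlapped that of the members, and whether the Piezo ratios differ from each other was not tested. Piezo2 in Des-rich cells stood at 71.4 (28.7 to 147), close to the 84.9 (42.4 to 152) of stromal cells lacking Pdgfra.

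Slit3 showed the opposite pattern. It encodes a secreted ligand of Robo receptors, and it had 9 counts in 8 members against 56 counts in 28 cells lacking Pdgfra. The levels were 120 (55.1 to 229) and 432 (326 to 561), a ratio of 0.279 (0.121 to 0.568). One cell lacking Pdgfra held 9 of the 56 counts. The level in members was like that of Des-rich cells at 112 (56.0 to 201) and above the 7.87 (3.16 to 16.2) of Aqp8- and Slc26a3-rich cells. Other guidance genes differed less: Nrp2 stood at 281 and 231, and Nrp1, the second neuropilin on the panel, at 93.7 and 154, with overlapping intervals.

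Dmpk, a kinase gene highly expressed in muscle, was lower in members as well. It had 29 counts in 21 members and 100 counts in 58 cells lacking Pdgfra, at levels of 388 (260 to 558) and 772 (628 to 938), a ratio of 0.503 (0.321 to 0.767). Des-rich cells held 3633 (3265 to 4030). The rule admits up to 1 Des count, and Des had 5 counts in members and 17 in cells lacking Pdgfra. Cacna1c, a calcium channel gene of smooth muscle, had 0 and 3 counts. Desmin-expressing muscle holds much Dmpk, and the part of muscle transcripts in the Dmpk ratio was not tested.

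Prdx6 and Ezr were higher in members than in stromal cells lacking Pdgfra, although both are far more abundant in epithelium. Prdx6 had 15 counts against 10, a ratio of 2.60 (1.09 to 6.48), and Ezr had 40 against 40, a ratio of 1.73 (1.09 to 2.76). Aqp8- and Slc26a3-rich cells held 849 of Prdx6 and 2431 of Ezr, beside 201 and 535 in members. Aqp8 or Slc26a3, which the rule limits, had a count in 26 of 84 members and 21 of 157 cells lacking Pdgfra. Shroom3 stood at 375 (249 to 542) and 255 (175 to 358). The part of epithelial transcripts in these ratios was not tested.

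**Figure D3:**
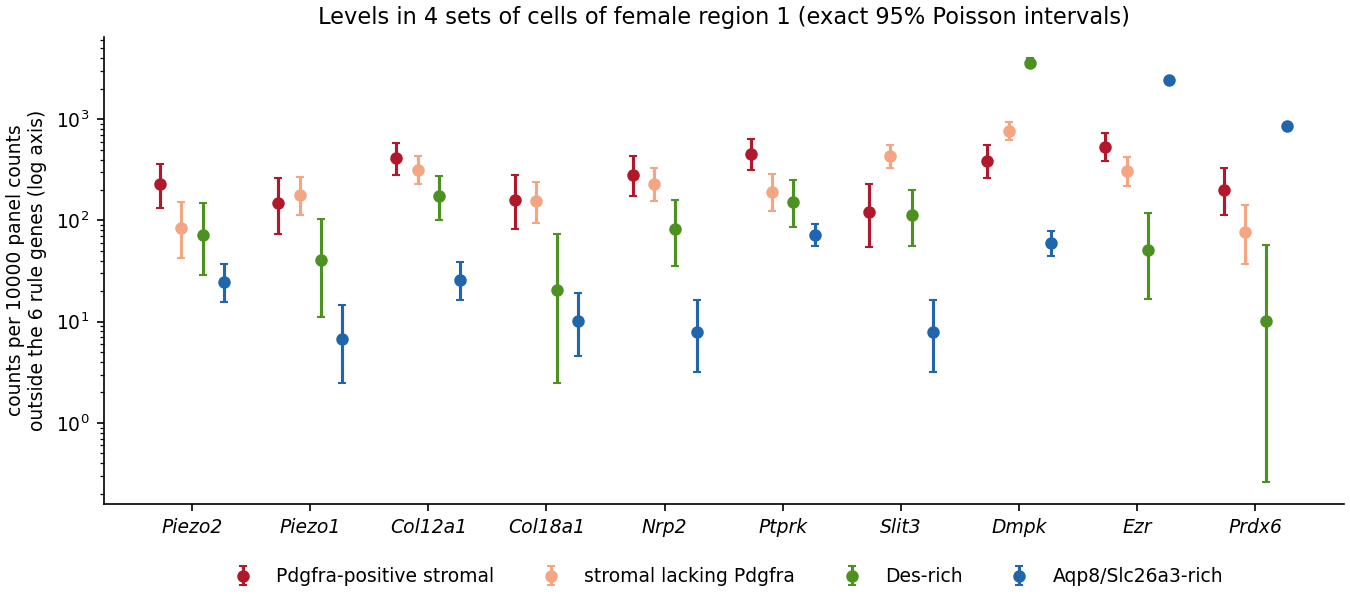
Level of 10 genes (counts per 10000 counts of the genes outside the rule, log axis) in Pdgfra-positive stromal cells (84), stromal cells lacking Pdgfra (157), Des-rich cells (93) and Aqp8- and Slc26a3-rich cells (531), with exact 95% Poisson intervals. Ptprk and Piezo2 are highest in the members, Slit3 in the stromal cells lacking Pdgfra, Dmpk in the Des-rich cells, and Ezr and Prdx6 in the Aqp8- and Slc26a3-rich cells.

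Several genes with a ratio of at least 2 in members over the other cells had overlapping intervals in both stromal sets. Col12a1 stood at 415 (282 to 589) in members and 316 (227 to 429) in cells lacking Pdgfra, and Col18a1 at 161 (83.0 to 281) and 154 (94.3 to 238). Fgfr1 stood at 228 (133 to 364) and 262 (182 to 367), and Prickle2 at 241 (143 to 381) and 193 (125 to 285). Tgfbr3, a co-receptor for TGF-beta, had 6 and 16 counts, and Ror2, a Wnt5a receptor, had 4 and 6. The ratios of Tgfbr3 (2.01) and Ror2 (2.32) over the other cells had intervals that spanned 1. For Col12a1, Col18a1, Fgfr1, Prickle2, Tgfbr3 and Ror2, a difference between the stromal sets was not detectable at this depth.

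**Figure D4:**
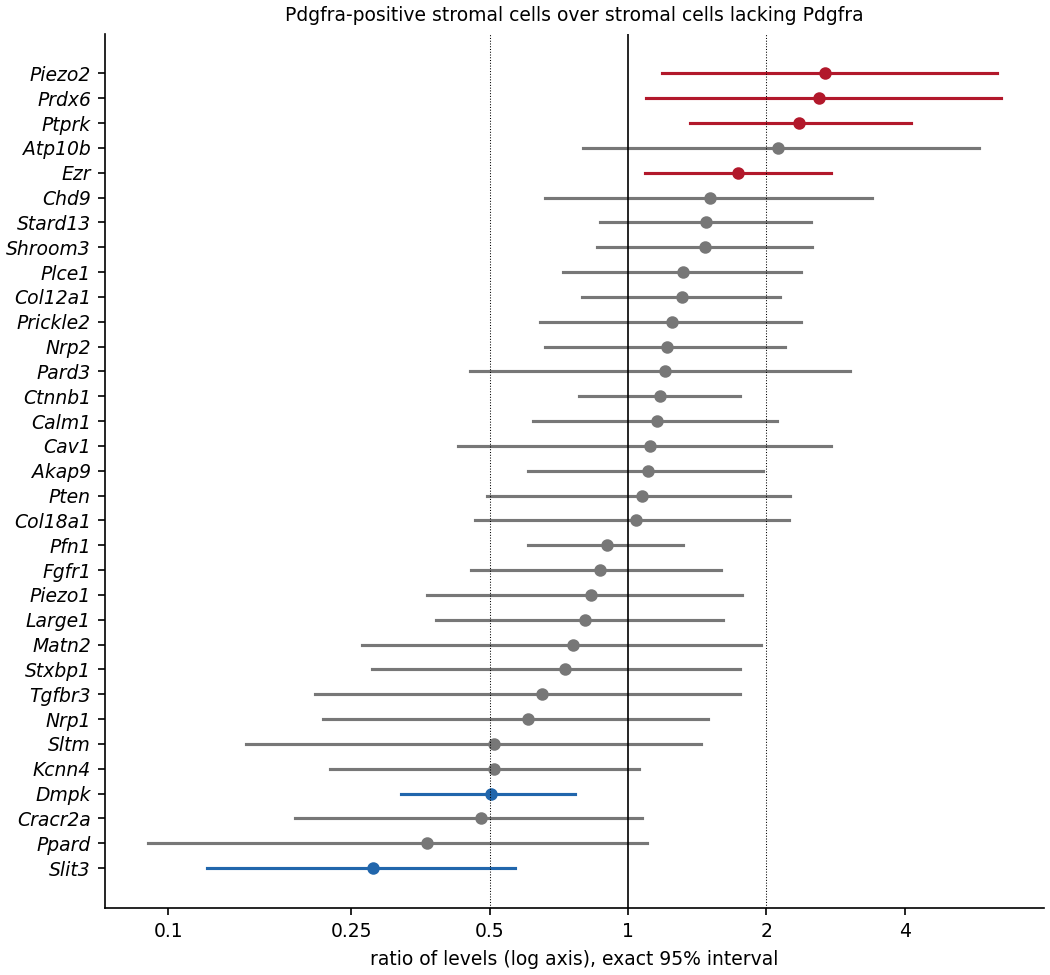
Ratio of level in the 84 Pdgfra-positive stromal cells to level in the 157 stromal cells lacking Pdgfra (log axis) for the 33 genes with at least 20 counts over both sets, with exact 95% intervals. Intervals lie above 1 for Piezo2, Prdx6, Ptprk and Ezr (red), below 1 for Slit3 and Dmpk (blue), and span 1 for the others (grey).

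The choice of members could itself shape this contrast, since a Pdgfra count helps a cell reach the stromal sum. Of the members, 26 had fewer than 3 counts of Fn1 and Vim, and their Ezr level was 809 against 379 in the other 58. With at least 3 counts of Fn1 and Vim in both sets, a choice made after seeing the data, the ratios were 2.40 for Ptprk, 3.22 (1.33 to 7.95) for Piezo2 and 0.292 for Slit3. Ezr then came to 1.23 (0.663 to 2.19), Prdx6 to 2.18 (0.749 to 6.14) and Dmpk to 0.655 (0.401 to 1.03). Among cells with no count of Ezr, Shroom3, Aqp8 or Slc26a3, 39 against 101, Piezo2 stood at 3.61, Ptprk at 2.27 (0.931 to 5.38) and Slit3 at 0.368 (0.129 to 0.863). The Piezo2 and Slit3 intervals excluded 1 under both restrictions, and those of Dmpk, Ezr and Prdx6 did not under the first.

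Shallower cells of the same region, which the rule did not use, gave a partial second look. Among cells with 5 to 9 panel counts that met the other limits, 48 with Pdgfra and 184 without, Ptprk had a ratio of 1.59 and Slit3 of 0.318 (0.0365 to 1.27). Piezo2 had 1 count in the 48 cells and a ratio of 1.32 (0.0252 to 16.5). Dmpk came to 0.872 (0.373 to 1.82). The direction was the same for these 4 genes, and every interval spanned 1.

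**Figure D5:**
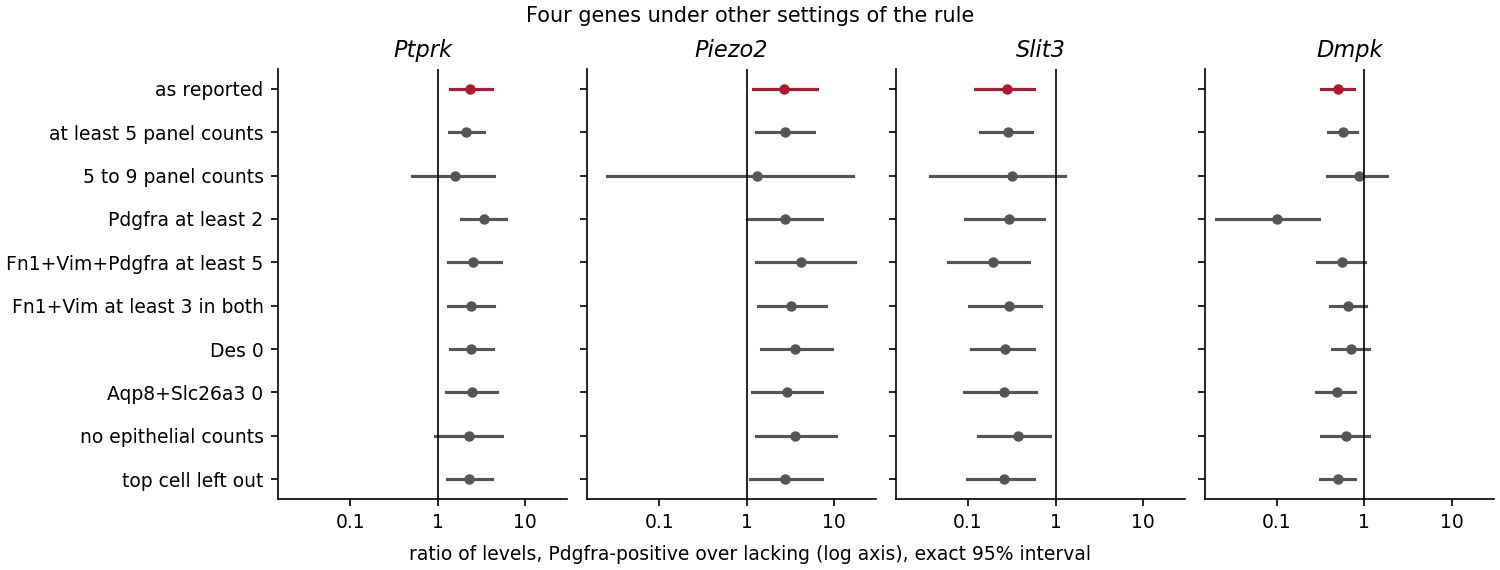
Ratio of level in Pdgfra-positive stromal cells to level in stromal cells lacking Pdgfra (log axis) for Ptprk, Piezo2, Slit3 and Dmpk, as reported (red) and under 9 other settings (grey), with exact 95% intervals. Points of Ptprk and Piezo2 stay above 1 and those of Slit3 and Dmpk below 1, while the intervals of cells with 5 to 9 panel counts span 1 in each panel.

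Within the members, Ptprk and Dmpk differed in opposite directions between cells with more and fewer Pdgfra counts. This split uses a gene of the rule and is a description. The 41 cells with at least 2 Pdgfra counts and the 43 cells with 1 had medians of 15 and 14 panel counts. Cells with fewer Pdgfra counts needed more Fn1 and Vim to reach the stromal sum, and Fn1 had 109 counts in the 41 cells and 169 in the 43, Vim 27 and 44. Their part in the ratios was not tested. Of 12 genes with at least 20 counts, 2 were past 2-fold (16.7%). Ptprk had 25 counts in 15 of the 41 cells and 9 counts in 7 of the 43, a ratio of 2.56 (1.15 to 6.22). Dmpk had 3 counts in 3 cells against 26 counts in 18, a ratio of 0.106 (0.0206 to 0.346). Members with 2 or more Pdgfra counts thus held little Dmpk, at 77.1 (15.9 to 225), and the Dmpk of the group lay mostly in cells with a single Pdgfra count, at 726 (474 to 1064). That second level is close to the 772 of stromal cells lacking Pdgfra. Col18a1, below the limit of 20 counts, had 10 counts against 2, and Piezo2 was even at 9 against 8.

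The split of the members by Vim, a gene of the rule, is a description. Of 12 genes with at least 20 counts, 2 were past 2-fold (16.7%), Ezr and Shroom3. Ezr had 8 counts in the 38 cells with Vim and 32 counts in the 46 without, a ratio of 0.301 (0.120 to 0.667). Shroom3 had 7 against 21, a ratio of 0.401 (0.144 to 0.980). Piezo2 and Fgfr1 each had 12 counts against 5, a ratio of 2.89 (0.947 to 10.5). Col12a1 stood at 472 and 368, and Ptprk at 442 and 466. Other epithelial genes were mixed: Gucy2c had 5 counts in cells with Vim against 2, Kcnn4 6 against 4, the transporter gene Slc12a8 2 against 7, and Slc26a3 10 against 14.

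Members without any count of Ezr, Shroom3, Aqp8 or Slc26a3 numbered 39 of the 84. Col12a1 stood at 660 in these 39 cells and 261 in the other 45, and Piezo2 at 347 and 153. Slit3 stood at 208 and 65.4, on 6 and 3 counts. Ptprk was at 382 and 501, on 11 and 23 counts, and Nrp2 at 208 and 327, on 6 and 15, the reverse order. No interval is given for these levels, so the orders are a description only. Col12a1 and Piezo2 were not at lower level in members without a count of Ezr, Shroom3, Aqp8 or Slc26a3. They rested on 19 and 10 counts in the 39 cells and 12 and 7 in the other 45. Cftr, Kcnn4, Gucy2c and Prdx6 were not used in this split. Levels were divided by 288 and 459 counts, and the 459 include 40 of Ezr and 28 of Shroom3. Their absence from the 39 cells by selection raises the other levels there. The part of epithelial transcripts in these levels was not tested.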

How the data were processed

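The authors deposited counts of transcripts per gene and segmented cell for 140 genes and 40 blank barcodes in 4 tables, 2 regions for each of 2 animals. Seurat is named per the submitters' processing notes. The sources used here do not give its role or version, or how transcripts were decoded and cells segmented. All 140 symbols matched the reference gene table. The members, gene lists and sets were chosen with earlier results of these data known.

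Counts were summed over the cells of a set and divided by the set's counts of the 134 genes outside the rule, per 10000. Ratios with at least 20 counts over both sides were compared, with exact intervals from scipy 1.17.1 (Python 3.11.15, pandas 2.3.3, numpy 2.4.6, matplotlib 3.10.9). With 1 animal per side no test was run. The interval code was tested on simulated data. Named genes were up to 10 in each direction whose interval excluded 1, ordered by ratio, and members of the gene lists. Cells were thinned to 10 counts per cell in expectation. Female region 1 held 45942 panel counts in 13707 cells. Doublets were not removed, and mixing of neighbouring cells by segmentation was not corrected.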

Additional observations from a re-analysis of the deposited data

How the results depend on the processing

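Other settings moved the number of genes past 2-fold more than the direction of the named genes. Depth limits all values, since the members hold 747 counts outside the rule.

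Against the other cells, where 29 genes were higher and 23 lower, the higher genes numbered 11 on a per-cell scale, 16 at a minimum of 25 panel counts, 15 for genes with at least 50 counts, and, chosen after seeing the data, 13 in cells with 5 to 9 counts and 9 against cells with few Aqp8 and Slc26a3 counts. The lower genes numbered 35 per cell, 39 with the top cell of each gene left out, 11 for genes with at least 50 counts and 49 with no filter. They numbered 38 for the 39 members without counts of Ezr, Shroom3, Aqp8 or Slc26a3, a setting chosen later. It left the other cells unrestricted, so Ezr and Shroom3 were 0 in members by selection and are among the 38. Ratios turned for Grid1, P2rx7, Matn2 and Olfm1, each 0 in the 6 members with at least 25 counts, for Piezo2 (0.978), Grid1 (0), P2rx7 (0) and Prdx6 (1.24) in cells with 5 to 9 counts, and for Prdx6 (1.39) against cells with few Aqp8 and Slc26a3 counts. The first 4 and the zeros rest on fewer cells.

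Against stromal cells lacking Pdgfra, where 4 genes were higher and 3 lower, no named gene turned. The higher genes numbered 1 at a stromal sum of 5, 2 without Aqp8 and Slc26a3 counts, 1 for genes with at least 50 counts, 19 with no filter, and, chosen later, 0 in cells with 5 to 9 counts and 2 with matched Fn1 and Vim. The lower genes numbered 5 at a minimum of 5 panel counts, with 2 or more Pdgfra counts, without Aqp8 and Slc26a3 counts, with the mean blank subtracted and with the top cell left out, 1 at a stromal sum of 5 and for genes with at least 50 counts, and 35 with no filter. At 25 panel counts no gene could be compared between the stromal sets or within the members.

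The members' share of 6.69% became 4.54% at 5 panel counts, 2.25% at 25, 3.26% with 2 or more Pdgfra counts, 4.70% at a stromal sum of 5 and 4.62% without Aqp8 and Slc26a3 counts. The Pdgfra, stromal sum and Aqp8 and Slc26a3 settings each kept part of the same 84 members over the same 1256 cells. Their lower shares were thus fixed by the stricter limit. At 5 and 25 panel counts the total number of cells changed too, and the causes of those shares were not tested. No paired analysis was possible because each animal is 1 sample and every comparison lies within 1 animal.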
